A study of Danio rerio with 6 samples.

Results

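The RNA editing deaminase genes were examined in zebrafish ovaries, WT against ddx4-L mutant. Members were chosen by name alone, as every gene in the count table whose symbol begins with adar or adad, or is apobec2 with or without a letter, and the rule found 8 of the 32519 genes. These are adar, a pair of genes that share the symbol ADARB1, ADARB2, ADAD1, adad2 and a pair that share the symbol APOBEC2. Zebrafish have an adarb1a and an adarb1b and an apobec2a and an apobec2b, but the gene IDs of each pair could not be tied to a letter, so they are given here by ID.

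Ovaries came from WT fish and fish of the ddx4-E4Δ line (called ddx4-L mutant or mutant below) at 6 months post-fertilization (mpf), with 3 libraries from each, which the study calls biological replicates. Whether a library holds the ovaries of 1 fish or of several is not given in the sources used here. The mutant line carries a short CRISPR-Cas9 deletion in exon 4 of ddx4. This exon belongs to the ovary-biased long transcript ddx4-L, and the short transcript ddx4-S lacks it and is still made. Whole ovaries hold oocytes of many stages together with follicle, stromal, blood and immune cells, so fewer cells of a type and less RNA per cell cannot be told apart. The authors counted reads per gene, and the tables summed to between 76520483 and 86263179 counts per library. In all 6 libraries the commonest value other than 0 was 4, which points to about 4 counts for each fragment sequenced. A level of 12 counts, or 0.142 to 0.161 CPM (counts scaled to the size of each library by TMM and given per 1000000), was taken as the lowest that can be told from 0. The labelled tissue was clear from the oocyte markers, as all 9 that were found in the table were tested and their summed level was 5680 to 5840 CPM in WT and 4080 to 5650 CPM in mutant libraries. Most of that sum was buc, h1m and ZAR1, at means of 2172, 1742 and 1238 CPM in WT, so it does not stand for the list. Where 3 values of a genotype are listed below, they are those of replicates 1, 2 and 3 in this order.

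ADAR enzymes bind double-stranded RNA and deaminate adenosine to inosine, which ribosomes and sequencers read as guanosine. In mammals, the product of ADAR edits mostly repeats in introns and 3′ untranslated regions and keeps the cell's own double-stranded RNA from setting off innate immune sensors, while that of ADARB1 recodes transcripts of neuronal receptors and channels. ADARB2 has the same domains but no known catalytic activity. ADAD1 and ADAD2 carry a deaminase-like domain without the catalytic residues and are known from male germ cells of mice. APOBEC2 is counted by family among the cytidine deaminases, a class that acts on cytidine in place of adenosine, and is best known from muscle. Whether APOBEC2 itself has this activity was not examined here. The paper that reported these libraries asked whether loss of ddx4-L alters A-to-I editing. It reported that A-to-I changes made up most editing events in both genotypes, with a slightly larger share in mutant than in WT ovaries. That share is of event types and is not a level of editing. The comparison here asks whether the enzymes themselves differed in mRNA level.

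The mRNA level of the catalytic adenosine deaminases did not differ between WT and ddx4-L mutant ovaries by more than the spread between libraries. The gene adar (ENSDARG00000012389) was counted 4253, 4545 and 4671 times in WT ovaries and 5359, 4480 and 4284 times in ddx4-L mutant ovaries. Its level was 57.1, 60.2 and 55.4 CPM in WT and 64.3, 58.6 and 54.0 CPM in the mutant. Both the highest and the lowest level of adar were in mutant libraries, and the WT libraries lay between them. On the log2 scale the mutant exceeded WT by 0.035 (standard error 0.099, adjusted p = 0.89). This p is from the quasi-likelihood F test of edgeR and adjusted by Benjamini-Hochberg for the 19353 genes tested. Its 95% interval ran from -0.20 to 0.27 in the same unit, which is a level in the mutant between 0.872 and 1.2 times that of WT. DESeq2 gave an adjusted p of 0.94. The coefficient of variation (CV) of adar over 3 libraries was 4.20% in WT and 8.73% in the mutant. Of all genes tested, 92.7% had a larger absolute log2 fold change than adar.

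The first of the pair with the symbol ADARB1, ENSDARG00000003544, was counted 807, 916 and 799 times in WT ovaries and 1013, 822 and 1176 times in ddx4-L mutant ovaries. Its level was 10.8, 12.1 and 9.48 CPM in WT and 12.2, 10.8 and 14.8 CPM in the mutant. Mutant replicate 3 stood above all other libraries, and the remaining libraries of the genotypes overlapped. The mutant was higher by 0.22 on the log2 scale (standard error 0.20, 95% interval -0.24 to 0.68, adjusted p = 0.60 by edgeR and 0.66 by DESeq2), and by 0.083 without mutant replicate 3. Its CV was 12.3% in WT and 16.5% in the mutant, larger than that of adar, on 200 to 294 fragments per library.

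The other ADARB1 gene, ENSDARG00000041609, was counted 21, 35 and 63 times in WT ovaries and 51, 24 and 10 times in ddx4-L mutant ovaries. These counts correspond to between 2 and 16 fragments per library. WT replicate 3 and mutant replicate 1 were the highest, and the groups overlapped. The difference of the mutant from WT, -0.50 on the log2 scale (standard error 0.73, adjusted p = 0.76 by edgeR and 0.83 by DESeq2), has a 95% interval from -2.22 to 1.21, so neither a fall to 0.215 of the WT level nor a rise to 2.31 times that level could be told from no change at this depth. Its CV was 47.1% in WT and 69.9% in the mutant. Leaving out mutant replicate 1 moved the log2 fold change to -1.18, and leaving out WT replicate 3 moved it to -0.087.

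ADARB2 (ENSDARG00000071823) was counted 19, 17 and 3 times in WT ovaries and 0, 6 and 8 times in ddx4-L mutant ovaries. Only WT replicates 1 and 2 exceeded the level of 12 counts, and WT replicate 3 lay within the range of the mutant libraries. The gene did not pass the filter on low counts and was not tested. ADARB2 is a brain gene in mammals. Of the 11 neuron marker genes found, 8 passed the filter and 0 were called by edgeR, with 3 at an unadjusted p under 0.05 and 2 called by DESeq2. Over all genes tested these shares were 4.57%, 19.9% and 12%. ELAVL3, which marks neurons, had 0 counts in every library, and the summed level of the list was 16.8 to 19.5 CPM in WT and 21.0 to 33.6 CPM in mutant libraries. The sum does not stand for the list, as 6 of the 8 tested markers were lower in the mutant (median log2 fold change -0.62). The higher sum lay in the 2 most abundant, sypa at 4.61 CPM in WT and 10.6 CPM in the mutant (adjusted p = 0.13 by edgeR and 0.019 by DESeq2) and STMN2 at 5.74 and 10.1 CPM (adjusted p = 0.17 and 0.058). The neurofilament gene nefla was at 1.34 CPM in WT and 0.252 CPM in the mutant (log2 fold change -2.40, adjusted p = 0.053 by edgeR and 0.0030 by DESeq2).

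**Figure D1:**
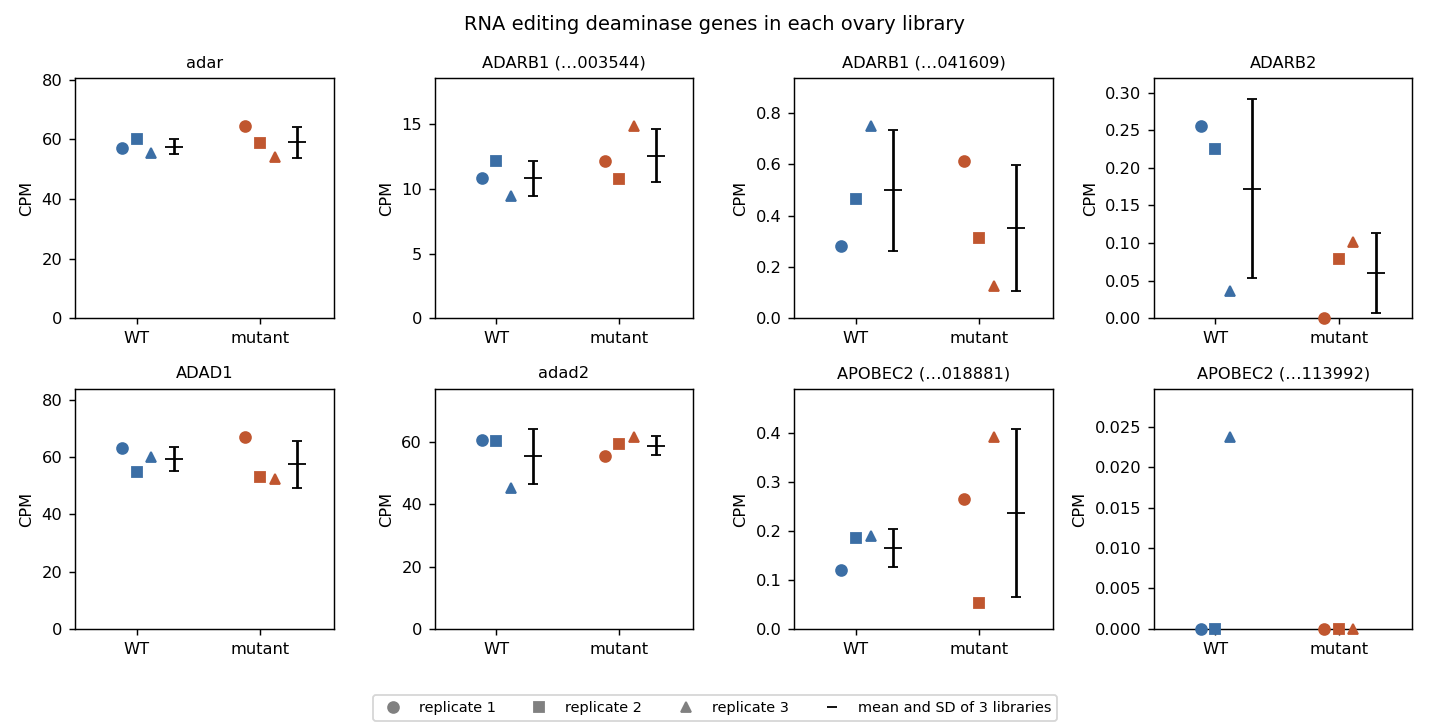
Level of the 8 RNA editing deaminase genes in each library, in CPM on a linear axis from 0, with WT in blue, ddx4-L mutant in orange, the mean and SD of 3 libraries in black and a marker shape for each replicate number. Genes that share a symbol are marked by the last digits of their ID, and the vertical scales differ between panels. In no panel were all WT libraries on one side of all mutant libraries, and no mean is drawn for APOBEC2 (ENSDARG00000113992), which stayed under 12 counts.

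The deaminase-like genes of germ cells, ADAD1 and adad2, also differed by less between the genotypes than among the libraries of 1 genotype. ADAD1 (ENSDARG00000089181) was counted 4689, 4122 and 5057 times in WT ovaries and 5576, 4061 and 4146 times in ddx4-L mutant ovaries. That is 63.0, 54.6 and 60.0 CPM in WT and 66.9, 53.1 and 52.3 CPM in the mutant. As with adar, mutant replicate 1 was the highest and mutant replicate 3 the lowest. Its log2 fold change was -0.043 (standard error 0.13, 95% interval -0.34 to 0.25, adjusted p = 0.89 by edgeR and 0.90 by DESeq2), which became 0.044 with total-count scaling and -0.17 without mutant replicate 1. Over the WT libraries the CV was 7.18% and over the mutant ones 14.3%, and 91.0% of all genes tested had a larger absolute log2 fold change.

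ADAD1 overlaps another gene, so part of its counts could be shared. In the RefSeq annotation of the GRCz12tu assembly, which is not the build the reads were mapped to, the span of adad1 overlaps those of bbs12, a chaperonin-like gene of Bardet-Biedl syndrome, and il2. In the count table bbs12 (ENSDARG00000016112) was counted 61, 74 and 110 times in WT ovaries and 2415, 97 and 79 times in ddx4-L mutant ovaries. The count of bbs12 in mutant replicate 1 thus stood far above the other 5 libraries, and it is the library in which ADAD1 was highest. Whether the counting used strand is not given in the sources used here, and whether the overlap adds to the ADAD1 count in that library was not tested.

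The gene adad2 (ENSDARG00000105626) was counted 4505, 4556 and 3810 times in WT ovaries and 4619, 4544 and 4873 times in ddx4-L mutant ovaries. Its level was 60.5, 60.3 and 45.2 CPM in WT and 55.4, 59.4 and 61.5 CPM in the mutant. WT replicate 3 was lower than all others, and the other 5 libraries lay close together. The fitted difference was 0.087 on the log2 scale (standard error 0.13, 95% interval -0.22 to 0.40, adjusted p = 0.77 by edgeR and 0.85 by DESeq2), and without WT replicate 3 it was -0.040. The CV was 15.9% in WT and 5.22% in the mutant, the reverse order to adar and ADAD1. In mice both genes are described from testis, and here both were counted in every ovary library.

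The APOBEC2 genes were barely present. ENSDARG00000018881 was counted 9, 14 and 16 times in WT ovaries and 22, 4 and 31 times in ddx4-L mutant ovaries, or 1 to 8 fragments per library. Mutant replicates 1 and 3 were above and mutant replicate 2 below every WT library. Its log2 fold change was 0.51 (standard error 0.86, 95% interval -1.5 to 2.51, adjusted p = 0.80 by edgeR and 0.88 by DESeq2), and without mutant replicate 3 it was -0.061. ENSDARG00000113992 had 2 counts in WT replicate 3 and 0 counts in the other 5 libraries, and was not tested. In the RefSeq annotation used above for ADAD1, the span of apobec2b overlaps that of OARD1. OARD1 was counted 3844, 4198 and 4233 times in WT ovaries and 4426, 3469 and 4903 times in ddx4-L mutant ovaries. Which of the APOBEC2 IDs is apobec2b is not known here, and whether the overlap adds to its counts was not tested.

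Muscle, where APOBEC2 is best known, was checked by its own genes. Of the 20 muscle markers found in the table, 11 were tested. At or under 12 counts in every library were 6 of the 20, which include 3 with 0 counts throughout, among them MYOD1 and pvalb1. Their summed level was 34.6 to 53.1 CPM in WT and 13.6 to 24.3 CPM in mutant libraries. Most of that sum in the WT libraries was actn3b, so the sum does not stand for the list. Of the 11 tested markers 8 were lower and 3 higher in the mutant, with a median log2 fold change of -0.27 against 0.014 over all genes tested. The most abundant of them, actn3b, an alpha-actinin, was at 25, 18.4 and 34.6 CPM in WT and 0.636, 0.719 and 13.75 CPM in the mutant, with a log2 fold change of -2.37 (adjusted p = 0.30). CASQ1 (ENSDARG00000038716), a calcium-binding protein of the sarcoplasmic reticulum, fell from 3.95, 3.89 and 4.26 CPM to 0.672, 1.01 and 0.770 CPM (log2 fold change -2.30, standard error 0.32, adjusted p = 0.012), the only muscle marker called. Thus 1 of the 11 tested muscle markers was called by edgeR and 3 were without overlap between the genotypes. Over all genes tested these shares were 4.57% and 28.4%. UNC45B, a myosin chaperone that works with Apobec2 in zebrafish muscle, was at 1.5, 0.874 and 0.997 CPM in WT and 0.744, 0.379 and 0.416 CPM in the mutant, without overlap between the genotypes (log2 fold change -1.13, standard error 0.49, adjusted p = 0.25). The part of muscle RNA in the APOBEC2 counts was not tested.

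Of the 8 members, 6 passed the filter on low counts and 0 had an adjusted p under 0.05 with edgeR, against 4.57% of all genes tested, 1.96% with a higher and 2.61% with a lower level in the mutant. With total-count scaling the split of calls over all genes turned from 379 higher and 505 lower to 533 higher and 411 lower. DESeq2 called 0 of the 6, against 12% of all genes, and 0 had an unadjusted p under 0.05 with edgeR, against 19.9% of all genes. In 0 of the 6 were the CPM values of the genotypes without overlap, against 28.4% of all genes tested. The count of members called was 0 under each of the 11 other settings and with each of the 6 libraries left out. The summed level of the 8 members was 192.1, 188.1 and 171.1 CPM in WT replicates 1, 2 and 3 and 199.7, 182.3 and 183.3 CPM in mutant replicates 1, 2 and 3. A p that misses the threshold does not show equal levels, and the intervals differ widely between members. For adar, ADAD1, adad2 and ADARB1 (ENSDARG00000003544) they lie within a fold of 0.792 to 1.6, while for ADARB1 (ENSDARG00000041609) and APOBEC2 (ENSDARG00000018881) the counts allow much larger changes in both directions.

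The balance among the members was compared within each library, since a ratio of counts needs no scaling between libraries. Only the 3 members with more than 12 counts in every library could be set against adar, and these ratios are not corrected for gene length. The log2 ratio of ADARB1 (ENSDARG00000003544) to adar was -2.40, -2.31 and -2.55 in the WT libraries and -2.40, -2.45 and -1.86 in those of the mutant. The mutant mean exceeded the WT mean by 0.18 (exact permutation test, two-sided, p = 0.6, adjusted p = 0.6 over the 3 ratios), and without mutant replicate 3 the difference was -0.0061. For ADAD1 the log2 ratio was 0.038 ± 0.16 (SD, n = 3) in WT and -0.044 ± 0.1 in the mutant (exact permutation test, p = 0.5, adjusted p = 0.6). For adad2 it was -0.069 ± 0.20 (SD, n = 3) in WT and -0.0027 ± 0.20 in the mutant (exact permutation test, p = 0.6, adjusted p = 0.6). The adad2 difference of 0.066 became -0.046 without WT replicate 3 and -0.028 without mutant replicate 3. All 3 ratios overlapped between the genotypes. With 3 libraries in each group the smallest p this test allows is 0.1.

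Genes with the pattern most like a member were sought by Pearson's r of log2 CPM over the 6 libraries, as a description. The member with the highest mean level was ADAD1 at 58.3 CPM, and of 19352 genes si:dkey-193i10.4 (r = 0.989), ITPR3 (r = 0.986) and kcp (r = 0.984) followed it most closely, with 110 genes at an r of 0.9 or more. For adar, whose mean level was also 58.3 CPM and which was added after its values were seen, they were TNPO1 (r = 0.996), WTIP (r = 0.982) and KAT6B (r = 0.978), with 130 genes at 0.9 or more. TNPO1, the nuclear import receptor transportin, was at 22.8, 24.8 and 21.7 CPM in WT and 27.6, 24.2 and 20.6 CPM in the mutant. Like adar, TNPO1 and KAT6B were highest in mutant replicate 1 and lowest in mutant replicate 3. These values share their libraries and the scaling of each, and 3 of the genes were scarce, with at most 0.336 CPM for si:dkey-193i10.4, 0.660 CPM for kcp and 0.516 CPM for WTIP. How many genes would reach an r of 0.9 over 6 libraries by chance was not examined, so no link to a member is drawn.

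Other deaminases, which act on tRNA or on free nucleosides and nucleotides, were compared as the wider family, and ADA2 (ENSDARG00000051746) was the only one called. Of 17 genes of this list 14 were tested, with 1 called as lower and 0 as higher in the mutant, with a median log2 fold change of 0.16 against 0.014 over all genes tested, and in 5 of the 14 the genotypes did not overlap, beside 4.57% called and 28.4% without overlap over all genes tested. The difference between these genes and the RNA editing deaminases was not tested. ADA2, an extracellular adenosine deaminase in mammals, had 14.9, 10.9 and 15.45 CPM in WT and 4.88, 5.28 and 5.35 CPM in mutant ovaries. Each mutant library lay below each WT library. Its log2 fold change was -1.41 (standard error 0.21, 95% interval -1.90 to -0.92, adjusted p = 0.014 by edgeR). The adjusted p rose to 0.054 without WT replicate 1, 0.051 without WT replicate 3, 0.058 without mutant replicate 1 and 0.055 without mutant replicate 2. The other gene with this symbol, ADA2 (ENSDARG00000015623), had 5, 3 and 47 counts in WT and 53, 13 and 50 counts in mutant replicates 1, 2 and 3 (log2 fold change 1.1, standard error 1.08, adjusted p = 0.63).

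The tRNA deaminases are the closest relatives of the ADAR enzymes by reaction, and all 3 were without overlap between the genotypes, as were 28.4% of all genes tested. ADAT1 edits an adenosine beside the anticodon of alanine tRNA. It was at 12.2, 3.77 and 13.3 CPM in WT and 1.75, 1.78 and 2.67 CPM in mutant ovaries, so WT replicate 2 lay nearer to the mutant libraries than to the other WT libraries. The log2 fold change of ADAT1 was -2.24 (standard error 0.49, 95% interval -3.39 to -1.09) and its adjusted p by edgeR missed the threshold at 0.05001. It was 5.8e-05 with DESeq2 and 0.013 by edgeR without WT replicate 2, and 0.10 to 0.15 with any other library left out.

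ADAT2 and ADAT3 form the enzyme that makes inosine at the wobble position of tRNA anticodons, with ADAT2 as the catalytic and ADAT3 as the supporting subunit. ADAT2 was at 22.8, 31.1 and 24.5 CPM in WT and 36.5, 36.7 and 33.2 CPM in the mutant, a difference of 0.44 on the log2 scale (standard error 0.15, adjusted p = 0.15). ADAT3 was at 23.4, 21.2 and 18.2 CPM in WT and 11.5, 14.0 and 14.1 CPM in the mutant, a difference of -0.67 on the log2 scale (standard error 0.17, adjusted p = 0.071 by edgeR and 0.0041 by DESeq2). The subunits thus had opposite signs. The log2 ratio of ADAT2 to ADAT3, chosen after their values were seen and not tested, was -0.038, 0.55 and 0.43 in the WT libraries and 1.67, 1.39 and 1.24 in those of the mutant.

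**Figure D2:**
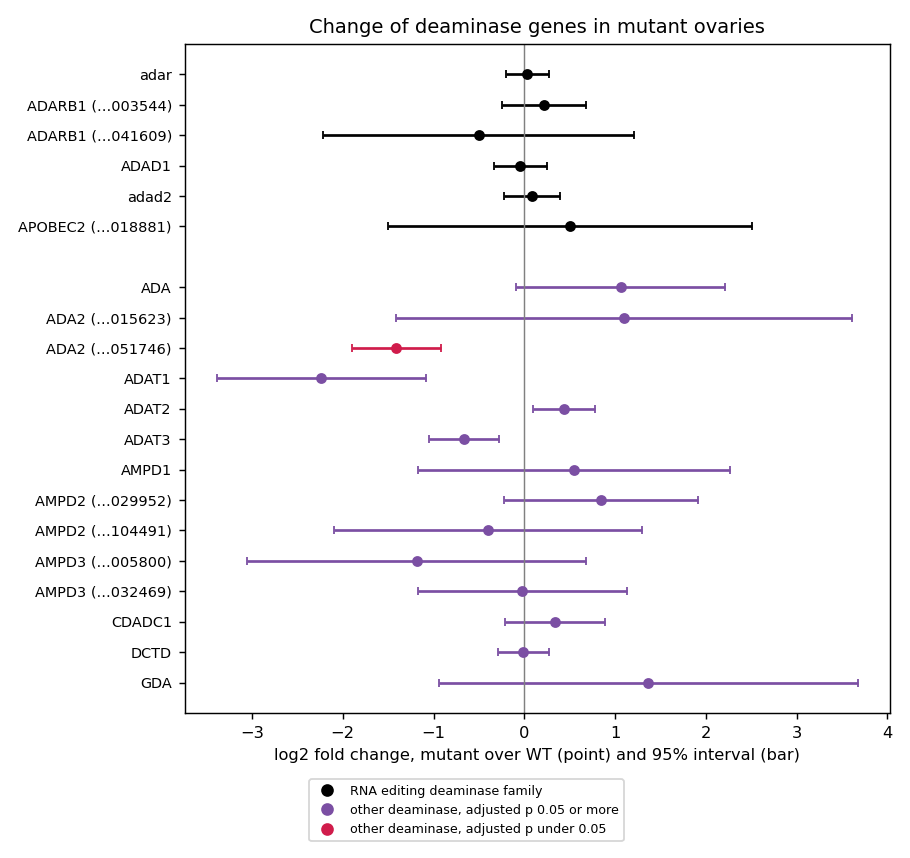
Log2 fold change of the ddx4-L mutant over WT with its 95% interval for the 6 tested RNA editing deaminase genes (black) and the 14 tested genes of the list of other deaminases (purple, and red for an adjusted p under 0.05). The intervals of adar, ADAD1, adad2 and ADARB1 (ENSDARG00000003544) are narrow and include 0, and ADA2 (ENSDARG00000051746), at -1.41, is the red point.

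**Figure D3:**
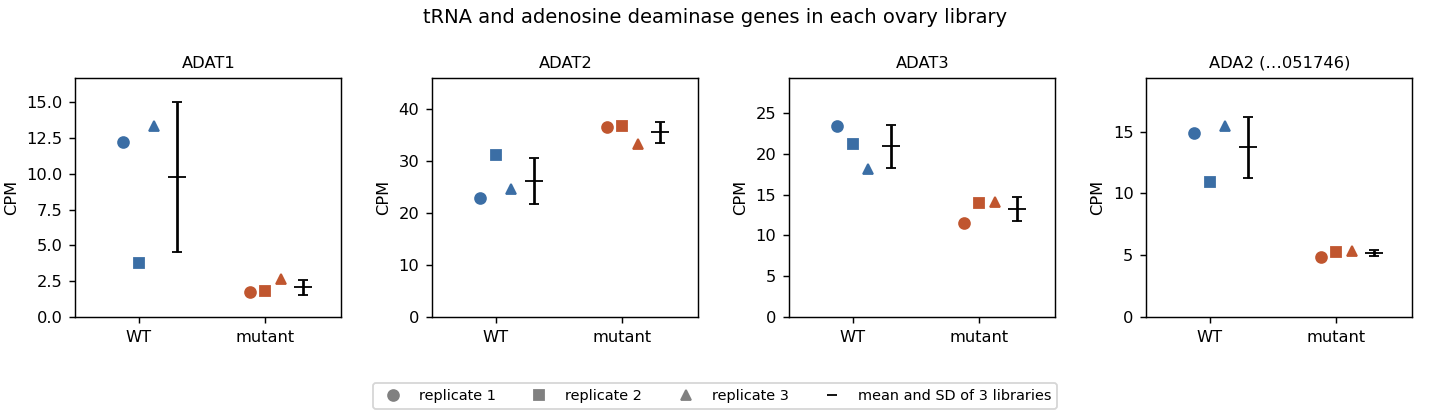
Level in each library of the 3 tRNA deaminase genes and of ADA2 (ENSDARG00000051746), in CPM on a linear axis from 0, with the mean and SD of 3 libraries in black. In each panel the genotypes do not overlap, with ADAT2 higher and the other genes lower in the mutant libraries.

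Proteins that bind double-stranded RNA beside the ADAR enzymes, move them into the nucleus or modify their activity in mammalian cells were taken as editing partners. Not every gene of the list fits this description. Among others it holds UNC45B, which was without overlap, and A1CF, which was not tested, both tied to the APOBEC family. Of the 36 genes on the list 35 were tested, and 0 had an adjusted p under 0.05 with edgeR, while 4 had an unadjusted p under 0.05 and DESeq2 called 3. Over all genes tested these shares were 4.57%, 19.9% and 12%. The median log2 fold change was -0.066 against 0.014 over all genes, and 13 were higher and 22 lower in the mutant. In 11 of the 35 the genotypes did not overlap, beside 28.4% of all genes. The helicases DHX9 and DDX6, which the study names as editing regulators, were at 42.2 ± 0.421 and 11.6 ± 2.58 CPM (SD, n = 3) in WT and at 43.9 ± 4.65 and 11.7 ± 2.56 CPM (SD, n = 3) in the mutant. DHX9 had a log2 fold change of 0.057 and DDX6 of 0.0099 (adjusted p = 0.82 and 0.99), and both changed sign with 1 library left out.

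The smallest p of this list belonged to PSPC1, STRBP and PRKRA, the genes that DESeq2 called as lower in the mutant. PSPC1, a protein of nuclear paraspeckles, was at 21.1, 28.4 and 33.3 CPM in WT and 14.6, 15.6 and 8.67 CPM in the mutant (log2 fold change -1.09, standard error 0.27, adjusted p = 0.067 by edgeR and 0.0011 by DESeq2). STRBP, a double-stranded RNA-binding protein known from mouse spermatids, was at 35.2, 26.2 and 15.7 CPM in WT and 14.2, 11.9 and 11.5 CPM in the mutant (log2 fold change -1.03, standard error 0.29, adjusted p = 0.094 by edgeR and 0.0045 by DESeq2). Without WT replicate 3, its WT library closest to the mutant ones, the adjusted p of STRBP in edgeR's test was 0.032. PRKRA, the protein activator of the kinase PKR, was at 70.9 ± 5.43 CPM in WT and 53.6 ± 6.61 CPM in the mutant (SD, n = 3), with an adjusted p of 0.11 by edgeR and 0.040 by DESeq2. The genes of 2 other paraspeckle proteins, NONO and sfpq, had log2 fold changes of -0.18 and -0.084 (adjusted p = 0.38 and 0.71).

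Transcripts that ADAR enzymes recode in mammals were examined as possible substrates, by level only, since editing itself cannot be read from gene counts. Of 33 genes 28 were tested. With edgeR 0 were called, 5 had an unadjusted p under 0.05 and 6 were without overlap, and DESeq2 called 3. Over all genes tested these shares were 4.57%, 19.9%, 28.4% and 12%. The median log2 fold change was 0.012. CYFIP2, a subunit of an actin-regulating complex, was at 6.76, 11.55 and 11 CPM in WT and 28.7, 24.9 and 15.3 CPM in the mutant (log2 fold change 1.23, standard error 0.30, adjusted p = 0.065 by edgeR and 0.00084 by DESeq2). AZIN1 (ENSDARG00000052789), an antizyme inhibitor that acts on polyamine synthesis, was at 23.4, 25.8 and 24.6 CPM in WT and 10.8, 13.5 and 18.2 CPM in the mutant (log2 fold change -0.79, standard error 0.20, adjusted p = 0.076 by edgeR and 0.0048 by DESeq2). Its paralog AZIN1 (ENSDARG00000035869) was at 168.2 ± 14.6 CPM in WT and 178.8 ± 20.4 CPM in the mutant (SD, n = 3), with an adjusted p of 0.71.

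The third gene that DESeq2 called was GRIK2, a kainate receptor subunit, at 7.84, 3.80 and 3.44 CPM in WT and 10.4, 11.4 and 14.2 CPM in the mutant (log2 fold change 1.26, standard error 0.35, adjusted p = 0.098 by edgeR and 0.0065 by DESeq2). Without WT replicate 1 the adjusted p of GRIK2 from edgeR was 0.032, and without mutant replicate 3 that of AZIN1 (ENSDARG00000052789) was 0.038. The widely used substrates COPA, BLCAP and NEIL1, which code for a coat protein, a growth-linked membrane protein and a DNA glycosylase, had log2 fold changes of -0.11, 0.012 and 0.028 (adjusted p = 0.56, 0.97 and 0.94).

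Sensors of double-stranded RNA and genes of the interferon response make up the last list, because they respond when unedited double-stranded RNA builds up in mice without Adar. Of 18 genes 14 were tested, and 0 were called by edgeR and 0 by DESeq2, while 1 had an unadjusted p under 0.05. Over all genes tested these shares were 4.57%, 12% and 19.9%. The signs were 11 higher and 3 lower in the mutant, against 9976 higher and 9377 lower over all genes tested. Their median log2 fold change was 0.42 against 0.014 over all genes. IFIH1, the sensor on which that response depends in mice, was at 0.363, 0.556 and 0.261 CPM in WT and 0.552, 0.209 and 0.328 CPM in the mutant (log2 fold change -0.11, standard error 0.63, adjusted p = 0.95). The gene isg15, an interferon-induced ubiquitin-like protein, was counted 12, 17 and 15 times in WT and 99, 27 and 75 times in the mutant. Its level was 0.161, 0.225 and 0.178 CPM in WT and 1.19, 0.353 and 0.946 CPM in the mutant. The log2 fold change of isg15 was 2.13 (standard error 0.62, adjusted p = 0.11), on WT values at or just above 12 counts. SAMHD1, a nucleotide hydrolase, was lower in the mutant, at 59.8 ± 3.70 CPM in WT and 51.1 ± 4.90 CPM in the mutant (SD, n = 3, adjusted p = 0.29). In 2 of the 14 the genotypes did not overlap, isg15 (higher in the mutant) and SAMHD1 (lower), beside 28.4% of all genes tested. Of the leukocyte markers, 6 of the 7 tested were higher in the mutant, with a median log2 fold change of 0.97. With edgeR 0 of these markers were called and 0 were without overlap between the genotypes, beside 4.57% and 28.4% of all genes tested. Their summed level was 24.4 to 79.3 CPM in WT and 37.8 to 115 CPM in mutant libraries, with cd74a as the most abundant, and their part in the result was not tested.

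**Figure D4:**
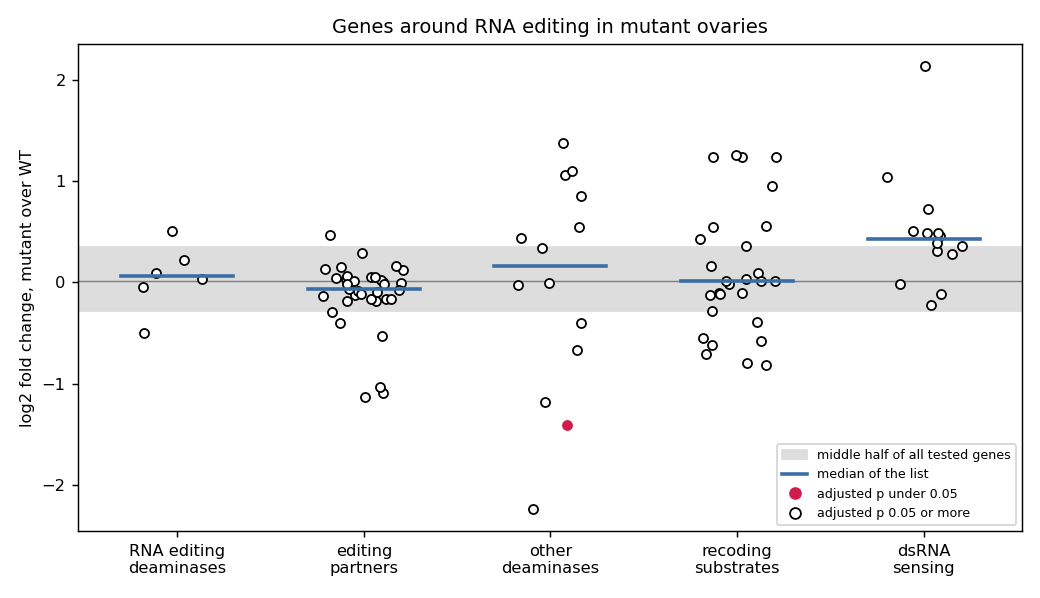
Log2 fold change of the ddx4-L mutant over WT for each tested gene of the RNA editing deaminases and the 4 lists around them, as circles, with the median of each list as a blue line and the middle of the distribution of all tested genes, from the lower to the upper quartile, in grey. Filled red circles have an adjusted p under 0.05, and only ADA2 (ENSDARG00000051746) has one.

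Markers of the main ovarian cell types were read beside these results. Over all genes tested 4.57% were called by edgeR and 12% by DESeq2, 19.9% had an unadjusted p under 0.05 and 28.4% were without overlap. In the oocyte list 1 of 9 genes was called, GDF9, an oocyte growth factor, which fell from 76.5, 66.5 and 69.0 CPM to 38.8, 39.9 and 41.3 CPM (adjusted p = 0.0064). The most abundant, buc, was at 2172 ± 75.6 CPM in WT and 1870 ± 277 CPM in the mutant, without overlap (SD, n = 3, adjusted p = 0.43). DESeq2 called 2 oocyte markers, GDF9 and, in the other direction, NANOS3, a germ cell RNA-binding protein, at 23.9 CPM in WT and 39.8 CPM in the mutant without overlap (log2 fold change 0.73, adjusted p = 0.13 by edgeR and 0.023 by DESeq2). Of the 9 oocyte markers 7 were lower and 2 higher in the mutant, with a median log2 fold change of -0.22. In this list 4 had an unadjusted p under 0.05 by edgeR. The 4 without overlap were GDF9, buc and PIWIL1, lower in the mutant, and NANOS3, higher in the mutant. For granulosa and theca cells 0 of 9 were called by edgeR or DESeq2, 1 had an unadjusted p under 0.05, and their summed level was 55.4 to 91.9 CPM in WT and 99.4 to 102 CPM in mutant libraries. That sum was mostly CYP17A1, at 74.3, 72.6 and 33.0 CPM in WT and 78.6, 89.0 and 86.3 CPM in the mutant (adjusted p = 0.38). WT replicate 3 thus stood apart from the other WT libraries. Of the 9, 5 were lower in the mutant, with a median log2 fold change of -0.042. The 2 genes without overlap were CYP17A1, higher in the mutant, and hsd3b1, lower, at 4.07 and 1.40 CPM (log2 fold change -1.54, adjusted p = 0.20). For blood 0 of 4 tested were called by either tool and 0 had an unadjusted p under 0.05, with a summed level of 2.68 to 15 CPM in WT and 2.21 to 3.46 CPM in mutant libraries, led by hbaa1. The part of these cell types in the levels of the RNA editing deaminases was not tested.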

How the data were processed

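RNA was sequenced in 3 WT and 3 ddx4-L mutant ovary libraries. Per the paper, the authors used Cutadapt, STAR on GRCz11 and featureCounts, whereas the submitters' processing notes name HISAT2, StringTie, RSEM and DESeq2. Annotation, strand and handling of multi-mapped reads are not given in the sources used here. The authors deposited unscaled whole numbers for 32519 Ensembl genes, and they are treated here as estimated counts because 1 fragment is worth about 4 of them. Symbols were matched for 29200 IDs.

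Genes were kept by filterByExpr, scaled by TMM and tested by the quasi-likelihood method in edgeR 4.0.16 (R 4.3.3, limma 3.58.1, two-sided), with p adjusted by Benjamini-Hochberg over all 19353 genes and a call at an adjusted p under 0.05. The standard error is the absolute log2 fold change over the square root of F. Ratios within libraries went into exact permutation tests. DESeq2 1.42.0, other scalings, filters, thresholds, counts divided by 4, the robust option, a block on replicate number and omission of each library were alternatives. Figures used matplotlib 3.10.9.

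Members and lists were chosen with earlier results of these data known. Named were all members, in each list every gene with an adjusted p under 0.05 or otherwise the 2 with the smallest p, several regulators and sensors, the most abundant marker of each cell type and the 3 genes most like the member of highest mean level. Members of lists named beyond this (UNC45B, PRKRA, NONO, sfpq, GRIK2, COPA, BLCAP, NEIL1, nefla, sypa, hsd3b1, NANOS3, PIWIL1, A1CF, GRIA2, pkz, ELAVL3, MYOD1, pvalb1), the second gene of a shared symbol, bbs12 and OARD1 were chosen after their values were seen. The lists held names without a row, and endov was not analysed here. The 3 libraries of a genotype are biological replicates per the paper, and p-values measure only the spread between them.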

Additional observations from a re-analysis of the deposited data

How the results depend on the processing

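The 0 members called stayed 0 in all alternatives, of which the added fold limit could not have raised the count. The number of genes called, 884, became 2323 with DESeq2, 325 with the replicate block and 1690 at an adjusted p under 0.1, and 380 to 553 with 1 library left out. Editing partners called, 0, became 3 with DESeq2, 1 with counts divided by 4 and 2 at an adjusted p under 0.1, and 0 to 1 with 1 library left out. Other deaminases called, 1, became 2 with RLE scaling, with every gene that had at least 1 count, with counts divided by 4 and with the robust option, 3 with DESeq2 and at an adjusted p under 0.1, and 0 with the replicate block, and 0 to 2 with 1 library left out. Recoding substrates called, 0, became 3 with DESeq2 and at an adjusted p under 0.1 and 1 with counts divided by 4, and 0 to 1 with 1 library left out. The cause was not tested.

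The log2 fold change was followed through the settings for the tested members and some of the named genes. Among these it changed sign in uncalled genes only. That of ADAD1 became 0.044 with total-count scaling and that of DDX6 became -0.0087 with upper-quartile scaling. With 1 library left out it ran from -0.17 to 0.020 for ADAD1, -0.040 to 0.16 for adad2, -0.033 to 0.094 for adar, -0.061 to 0.97 for APOBEC2 (ENSDARG00000018881), -0.046 to 0.17 for TNPO1, -0.18 to 0.18 for DDX6, -0.030 to 0.13 for DHX9 and -0.55 to 0.21 for IFIH1.

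The genotypes share replicate numbers, but libraries of the same number did not deviate together, with correlations of -0.074, 0.083 and -0.018 for numbers 1, 2 and 3, so they were not taken as pairs. The replicate block gave adjusted p of 0.061 for ADA2 (ENSDARG00000051746) and 0.055 for CASQ1 (ENSDARG00000038716). Depth limits ADARB2, the scarce ADARB1 gene and both APOBEC2 genes, whose libraries hold at most 16 fragments.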

Other observations

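Libraries of 1 genotype stood apart from each other in a few genes around RNA editing, of which GRIA2 and A1CF did not pass the filter on low counts and were not tested. GRIA2 (ENSDARG00000070173), the glutamate receptor subunit whose transcript ADARB1 recodes in mammals, had 136 and 158 counts in WT replicates 1 and 3, 0 counts in WT replicate 2, and 0, 0 and 7 counts in mutant replicates 1, 2 and 3. A1CF, a cofactor of the cytidine deaminase APOBEC1 in mammals, had 203 counts in mutant replicate 2, 3 counts in mutant replicate 1 and 0 counts in the other 4 libraries. The pkz gene, a fish kinase that binds Z-form nucleic acid, was at 5.22 and 5.73 CPM in mutant replicates 1 and 2 and at 0.870 CPM in mutant replicate 3, against 1.56, 2.50 and 1.70 CPM in WT (adjusted p = 0.43 by edgeR).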
